A study of Mus musculus with 8 samples.

Results

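The genes analysed here encode the MOS-MAPK-RSK kinase cascade of the mouse oocyte. They were chosen by gene symbol: *Mos*, *Map2k1*, *Map2k2*, *Mapk3*, *Rps6ka1*, *Rps6ka2* and *Rps6ka3*. All 7 were listed among the 15962 genes present in every table, and 6 of them passed the filter on low values and are among the 13968 genes tested. *Rps6ka2* did not pass it.

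In this cascade, MOS, a serine/threonine kinase of germ cells, phosphorylates the MAP kinase kinases MEK1 (*Map2k1*) and MEK2 (*Map2k2*). These phosphorylate MAP kinases, ERK1 (*Mapk3*) among them, which in turn activate the ribosomal S6 kinases of the RSK family. The cascade becomes active as meiosis resumes, promotes the translation of stored maternal mRNAs, among them *Btg4*, and helps to hold the egg at metaphase II. BTG4 recruits the CCR4-NOT deadenylase, which shortens poly(A) tails and so starts the decay of maternal mRNAs. Activity of the cascade is set by protein synthesis and phosphorylation, neither of which RNA levels report.

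Polyadenylated RNA was measured by RNA-seq in 8 libraries of 15 pooled oocytes each, 2 per group, from female Crl:CD1 (ICR) mice, 6 weeks old and primed with gonadotropin. GV oocytes were arrested before meiotic resumption with an intact germinal vesicle, and MII oocytes had reached metaphase II. Both were uninjected, wild type and cultured in vitro. Btg4wt and Btg4tm oocytes were MII oocytes overexpressing Myc-tagged BTG4 from microinjected cRNA. The Btg4wt cRNA encoded the wild-type protein, and in the Btg4tm protein 3 neighbouring phosphorylated residues were changed to alanine. Injected oocytes kept their own *Btg4* gene, and no group injected with a control RNA was analysed here. The authors state that expressing either exogenous protein seemed to lower the oocyte's own BTG4. The labels do not say whether the libraries of a group came from separate animals or cultures, so p-values measure only the spread between these libraries. Levels are given in TPM (transcript abundance as a share of the library corrected for gene length) after scaling between libraries by the median of ratios. Because TPM correct for length, levels of different genes can be set side by side. Reverse transcription started from oligo(dT), so a value depends on the poly(A) tail of an RNA as well as on its amount, and depth is unknown. In pooled oocytes, fewer cells and less RNA per cell cannot be told apart.

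Replicate libraries correlated at 0.982 to 0.987 across genes. All 10 oocyte markers were tested, with summed levels of 22127 to 29523 scaled TPM. Of 12 cumulus and granulosa markers, 4 were in all tables, with summed levels of 32.9 to 33.1 in GV, 40.9 to 43.9 in MII, 40.8 to 42.7 in Btg4wt and 33.5 to 38.4 in Btg4tm. *Cyp19a1* was the highest of these, *Ptgs2* stayed at or below 0.609, *Amh* and *Foxl2* were in no table, and *Fshr* and *Cyp11a1* were listed in the tables of the injected oocytes alone. Of the 3 tested, 1 was called lower in MII over GV and 1 higher in Btg4tm over Btg4wt. Both calls were *Inha*, which encodes the inhibin alpha subunit and is named after its values were seen, with log2 fold changes of -1.72 (adjusted p = 0.0048, limma) and 1.74 (adjusted p = 0.0062, limma). The other tested markers had log2 fold changes of 0.27 and 0.63 in MII over GV, and -0.23 and -0.87 in Btg4tm over Btg4wt. The part of these markers in the results was not tested. The scaling centred the median log2 fold change of all genes at 0.00 in MII over GV and at 0.01 in Btg4tm over Btg4wt. Scaling to the mitochondrially encoded genes instead moved these medians to -1.74 and 0.88. Unless another scaling is named, every change below is relative to the median over genes and not to the amount of RNA in an oocyte. A gene was called if its log2 fold change exceeded 1 in size with an adjusted p-value under 0.05. In MII over GV the calls numbered 1752 higher and 3351 lower, against 3102 and 2711 after quantile normalization, 1145 and 3699 with TPM as deposited, and 7 and 11403 with mitochondrial scaling. For Btg4tm over Btg4wt they numbered 2534 higher and 1109 lower, against 2081 and 1778 after quantile normalization and 6089 and 69 with mitochondrial scaling.

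The cascade genes lie on 6 chromosomes (GRCm38, GENCODE M21). *Mos* (ENSMUSG00000078365, chr4:3870657-3872105, minus strand) has a single exon and an annotated 3′UTR of 126 bases. *Map2k1* (ENSMUSG00000004936, chr9:64185770-64253631, minus strand) and *Map2k2* (ENSMUSG00000035027, chr10:81105915-81133975, plus strand) have 11 exons each in their protein-coding transcripts of greatest spliced length. *Mapk3* (ENSMUSG00000063065, chr7:126759601-126765819, plus strand) has 9. Of the RSK genes, *Rps6ka1* (ENSMUSG00000003644, chr4:133847290-133887797, minus strand) has 22 exons, *Rps6ka2* (ENSMUSG00000023809, chr17:7170115-7303315, plus strand) 21 and *Rps6ka3* (ENSMUSG00000031309, chrX:159210307-159368244, plus strand) 22. Stretches of 50 bases shared with another gene covered 2.30% of the *Map2k1* and 2.33% of the *Map2k2* transcript, which share them with each other. They covered 2.78% of *Mapk3*, shared with *Gm15546*, and 50.9% of *Rps6ka2*, shared with AC166110.4 and *Sod2*. Reads from such stretches can be lost or misassigned, so the value of *Rps6ka2* is uncertain. An antisense gene, *Gm12977*, overlaps 5.80% of the exonic bases of *Rps6ka1*, and counting ignored strand.

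Short 3′UTR sequences of a pair of classes bear on poly(A) tails in maturing oocytes. The hexamers AATAAA and ATTAAA are polyadenylation signals, and TTTTAT and TTTTAAT are cytoplasmic polyadenylation elements, which CPEB proteins read. The ends of 5 members' longest annotated 3′UTRs are shown because each carries its last AATAAA, in capitals, 21 to 24 bases before the end of the transcript (sense strand, GRCm38).
*Mos*, chr4:3870657-3870686, minus strand: ttttaggaAATAAAgttaccacgaacttca
*Map2k1*, chr9:64185770-64185799, minus strand: tcaagttaaAATAAAagggacaagagattt
*Map2k2*, chr10:81130659-81130688, plus strand: ctactaAATAAAgtaaatttcgcatctgtc
*Rps6ka1*, chr4:133847290-133847319, minus strand: cctttctAATAAActtacaatccagttaaa
*Rps6ka3*, chrX:159368215-159368244, plus strand: aatttatatAATAAAgtttcaagtaaagca

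The 612-base 3′UTR of *Mapk3* held neither signal. TTTTAT and TTTTAAT together occurred 0 times in the 3′UTRs of *Mos*, *Map2k2*, *Mapk3* and *Rps6ka1*, 2 times in *Map2k1*, 2 times in *Rps6ka2* and 7 times in *Rps6ka3*. For comparison, *Btg4* held 5 in 521 bases. Only these exact words were searched, so a count of 0 does not show that elements of another form are absent. The lengths searched differ widely, from 126 bases in *Mos* to 4759 in *Rps6ka3*. Whether these counts bear on the fold changes was not tested. The TTTTAT before the last signal of *Map2k1* is shown in capitals with that of *Btg4*.
*Map2k1*, chr9:64186179-64186206, minus strand: cgtcatggtatTTTTATtttttgctttt
*Btg4*, chr9:51119477-51119504, plus strand: tttatgtaaaaTTTTATgaacactagtg

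The *Map2k1* element starts 405 bases before the start of its last signal, and the *Btg4* element 97 bases before. These signals differ in place: that of *Map2k1* starts 21 bases before the end of the 3′UTR and that of *Btg4* 291 bases before. *Btg4* held neither signal in its last 150 bases, where 2 TTTTAT lay, after its last signal. Within the last 150 bases, TTTTAT or TTTTAAT was found in 1 of the 7 members, *Rps6ka2* (in *Mos*, whose 3′UTR is shorter, the whole of it was searched). The *Rps6ka2* match lies after its last AATAAA, and its last element before that signal starts 857 bases upstream of it. Of the 10260 tested genes with a 3′UTR of that length, 26.0% held one there, and 82.8% held AATAAA or ATTAAA. These matches describe the letters of the annotated sequence and say nothing of which elements are used.

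*Mos* had the highest RNA level of the cascade in every library, and *Rps6ka2* the lowest. The 7 genes together made up 0.238% to 0.309% of all TPM, and *Mos* alone made up 69.6% to 82.4% of that sum. In GV oocytes the mean levels fell from *Mos* through *Mapk3*, *Map2k1*, *Rps6ka1*, *Map2k2* and *Rps6ka3* to *Rps6ka2*, and no neighbours in this order overlapped. MII oocytes differed at 2 places: *Map2k1* stood above *Mapk3*, and *Rps6ka3* above *Map2k2*. Btg4wt oocytes had the MII order, except that the libraries of *Rps6ka3* and *Map2k2* overlapped. Btg4tm oocytes had the GV order, with *Mapk3* above *Map2k1*, except that *Rps6ka1* and *Map2k2* overlapped.

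**Figure D1:**
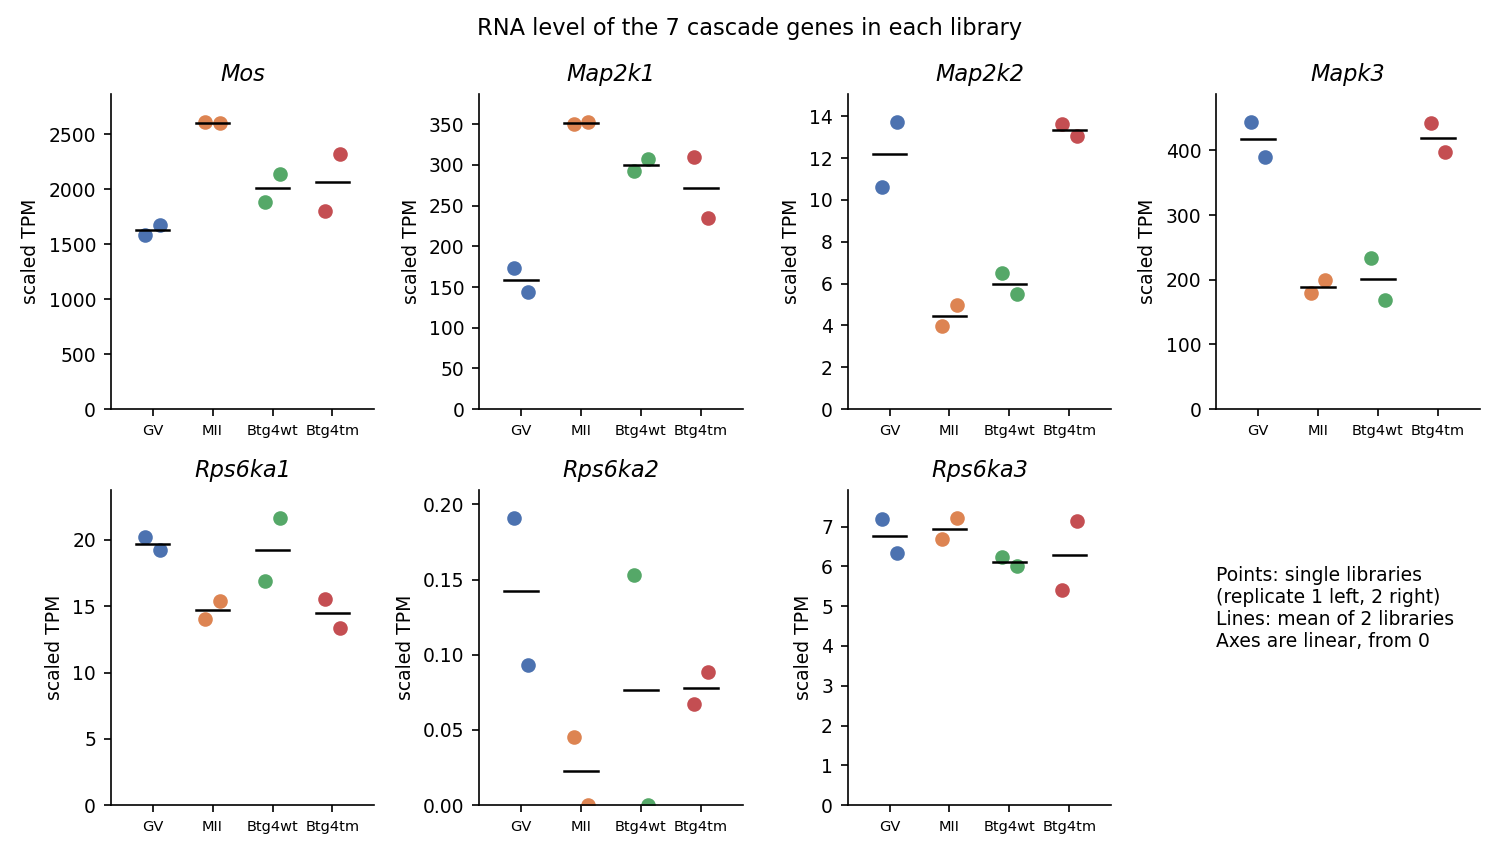
RNA level of the 7 cascade genes in scaled TPM (vertical axes, linear from 0) in each of the 4 groups. Points are single libraries and lines are means of 2. *Mapk3* and *Map2k2* are high in GV and Btg4tm and low in MII and Btg4wt, whereas *Map2k1* is lowest in GV.

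*Mos*, the kinase at the head of the cascade, had 1586 and 1676 scaled TPM in the GV libraries and 2610 and 2604 in the MII libraries. It had 1881 and 2141 in Btg4wt and 1801 and 2322 in Btg4tm. Every MII library lay above every library of the other groups, every GV library lay below them, and the injected groups overlapped. From GV to MII the log2 fold change was 0.68 (SE 0.13, adjusted p = 0.0025, limma with Benjamini-Hochberg adjustment), under the minimum for a call, and it was 0.40 after quantile normalization and -1.54 with mitochondrial scaling. Relative to the median of all genes it was 0.13 and 0.20 under these scalings, beside 0.68 under the scaling used here. Between Btg4tm and Btg4wt it was 0.03 (95% confidence interval -0.28 to 0.33, adjusted p = 0.89, limma).

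*Map2k1*, which encodes MEK1, had 174 and 144 scaled TPM in GV, 351 and 352 in MII, 292 and 307 in Btg4wt and 310 and 234 in Btg4tm. Both GV libraries lay below all others. *Map2k1* was the member called higher after maturation, and its log2 fold change in MII over GV was 1.15 (SE 0.15, adjusted p = 0.00022, limma). It was 0.99 with TPM as deposited and turned to -1.06 with mitochondrial scaling. Against the median of all genes, the value under mitochondrial scaling was 0.68 higher. The ranges of Btg4wt and Btg4tm overlapped, and their log2 fold change was -0.15 (95% confidence interval -0.49 to 0.19, adjusted p = 0.43, limma).

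*Map2k2*, which encodes MEK2, was far less abundant and went the other way. It had 10.6 and 13.7 scaled TPM in GV, 3.96 and 4.96 in MII, 6.51 and 5.50 in Btg4wt and 13.6 and 13.1 in Btg4tm. The MII and Btg4wt libraries all lay below the GV and Btg4tm libraries. It was lower in MII than in GV oocytes by a log2 fold change of -1.27 (SE 0.19, adjusted p = 6e-04, limma), a call lost after quantile normalization (-0.94). Btg4tm over Btg4wt gave 1.04 (SE 0.19, adjusted p = 0.0026, limma), which missed the minimum after quantile normalization (0.80) and without Btg4wt replicate 2 (0.93).

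*Mapk3*, which encodes ERK1, had the same pattern at a higher level. GV libraries had 444 and 390 scaled TPM, MII libraries 180 and 199, Btg4wt libraries 234 and 169 and Btg4tm libraries 442 and 398. No MII or Btg4wt library reached the level of any GV or Btg4tm library. The log2 fold change was -1.13 in MII over GV (SE 0.16, adjusted p = 0.00037, limma). In Btg4tm over Btg4wt it was 1.07 (SE 0.16, adjusted p = 0.00074, limma). The latter call missed the minimum fold after quantile normalization (0.93), without Btg4wt replicate 2 (0.83) and without Btg4tm replicate 1 (0.99), and its direction stayed the same in each. The granulosa marker *Inha* was called in the same directions as *Mapk3* and *Map2k2* in both comparisons. The other granulosa markers tested had the opposite signs in both. The part of *Inha* in these results was not tested. The difference between Btg4tm and GV oocytes was 0.01 (95% confidence interval -0.35 to 0.38, adjusted p = 0.97, limma), and that between Btg4wt and MII oocytes was 0.07 (95% confidence interval -0.29 to 0.44, adjusted p = 0.91, limma).

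*Rps6ka1*, which encodes RSK1, had 20.2 and 19.2 scaled TPM in GV, 14.0 and 15.4 in MII, 16.9 and 21.6 in Btg4wt and 15.6 and 13.3 in Btg4tm. The MII libraries lay below the GV libraries, the Btg4tm libraries below the Btg4wt libraries, and MII and Btg4tm overlapped. Neither difference passed the test: the log2 fold change was -0.40 in MII over GV (SE 0.16, adjusted p = 0.062, limma) and -0.38 in Btg4tm over Btg4wt (SE 0.16, adjusted p = 0.085, limma).

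*Rps6ka3*, which encodes RSK2, had 7.20 and 6.33 scaled TPM in GV, 6.68 and 7.21 in MII, 6.23 and 6.01 in Btg4wt and 5.42 and 7.15 in Btg4tm. Libraries of GV, MII and Btg4tm overlapped, and both Btg4wt libraries lay within the Btg4tm range. Its log2 fold change was 0.04 in MII over GV (95% confidence interval -0.40 to 0.47, adjusted p = 0.88, limma) and 0.02 in Btg4tm over Btg4wt (95% confidence interval -0.41 to 0.46, adjusted p = 0.93, limma). *Rps6ka2*, which encodes RSK3, had 0.191 and 0.0934 scaled TPM in GV, 0.0452 and 0 in MII, 0.153 and 0 in Btg4wt and 0.0671 and 0.0883 in Btg4tm. It did not enter the fit, so its differences were not tested.

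In MII over GV, 1 of the 6 members tested was called higher and 2 were called lower, and 4 had an adjusted p-value under 0.05. Over all genes tested, 12.5% were called higher, 24% lower, and 62.6% had an adjusted p-value under 0.05. The median log2 fold change of the members was -0.18 beside 0.00 for all genes. In Btg4tm over Btg4wt, 2 members were called higher (*Map2k2* and *Mapk3*) and 0 lower, and 2 had an adjusted p-value under 0.05. The corresponding shares of all genes were 18.1% higher, 7.94% lower and 49.5% with an adjusted p-value under 0.05. At an unadjusted p-value under 0.05, 3 members differed in this comparison, *Rps6ka1* being the third, beside 55.5% of all genes. The 2 calls became 0 without Btg4wt replicate 2 and 1 without Btg4tm replicate 1. The members' median was 0.02 beside 0.01 for all genes. With 6 genes, these counts are a description of the members and not of the cascade as a set.

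The injected oocytes were also set against uninjected ones. In Btg4wt over MII, limma called 0 of the 6 members in either direction, as it called 0% of all genes. At an unadjusted p-value under 0.05, 1 member differed (*Mos*, log2 fold change -0.38, SE 0.13, adjusted p = 0.34, limma), as did 1655 genes in all, or 11.8%. In Btg4tm over GV, limma called 0 members in either direction, while 1.02% of all genes were called higher, 1.02% lower, and 11.4% had an adjusted p-value under 0.05. *Map2k1* had an adjusted p-value under 0.05 there, with a log2 fold change of 0.77 (SE 0.15, adjusted p = 0.017, limma). Thus *Map2k1* stood above its GV level in Btg4tm oocytes, while the intervals for *Mapk3* and *Map2k2* (-0.31 to 0.58) against GV included 0. At an unadjusted p-value under 0.05, *Mos* and *Rps6ka1* also differed, which makes 3 of 6 members beside 29.7% of all genes. The MII over GV and Btg4tm over GV comparisons share the GV libraries, and those with Btg4wt share the Btg4wt libraries.

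**Figure D2:**
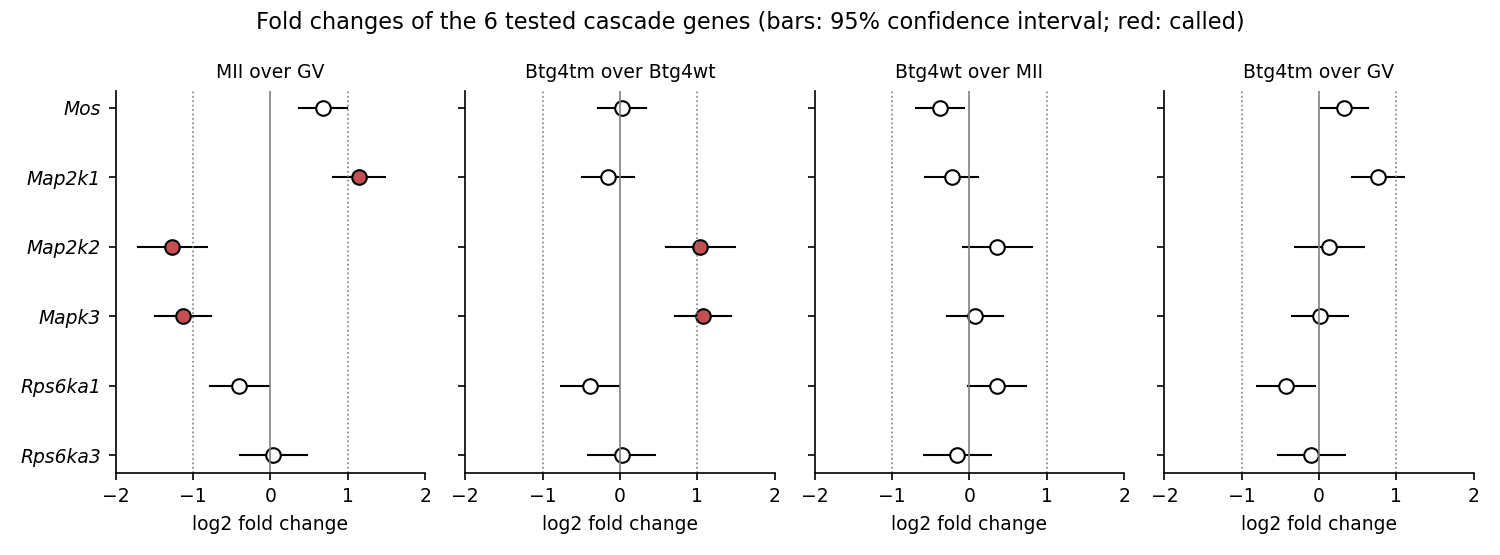
Log2 fold change (horizontal axes) of the 6 tested cascade genes in 4 comparisons, with 95% confidence intervals from limma as bars. Red points were called, and dotted lines mark the minimum fold of a call. *Map2k2* and *Mapk3* lie at -1.27 and -1.13 in MII over GV and at 1.04 and 1.07 in Btg4tm over Btg4wt.

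Ratios of genes within a library cannot be moved by scaling. *Mapk3* RNA was 2.55 and 2.71 times that of *Map2k1* in the GV libraries, and 0.514 and 0.564 times in the MII libraries. The ratio was 0.803 and 0.550 in Btg4wt and 1.42 and 1.70 in Btg4tm. Btg4tm libraries lay between those of GV and those of MII and Btg4wt, and the last groups overlapped. *Mos* RNA was 3.58 and 4.30 times that of *Mapk3* in GV, 14.5 and 13.1 times in MII, 8.02 and 12.7 times in Btg4wt and 4.08 and 5.83 times in Btg4tm, so GV and Btg4tm overlapped below the other groups. Exact permutation of 2 against 2 libraries cannot give a p-value below 0.333, so these ratios were not tested.

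Within the MEK family, *Map2k1* supplied at least 91.3% of the RNA in every library. The share of *Map2k2* was 5.76% and 8.71% in GV, 1.11% and 1.39% in MII, 2.18% and 1.76% in Btg4wt and 4.21% and 5.28% in Btg4tm. No 2 groups overlapped.

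Within the RSK family, *Rps6ka1* was the main RNA in GV and *Rps6ka6*, which encodes RSK4, the main one in MII. *Rps6ka1* made up 53.3% and 54.0% in GV, 30.8% and 31.7% in MII, 35.4% and 45.4% in Btg4wt and 43.3% and 35.6% in Btg4tm. *Rps6ka6* made up 27.2% and 27.9% in GV, 54.4% and 53.4% in MII, 51.2% and 42.0% in Btg4wt and 41.5% and 45.1% in Btg4tm. In this family Btg4tm overlapped Btg4wt in both shares and reached neither range of GV. *Rps6ka3* kept 12.6% to 19.1% over all libraries.

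**Figure D3:**
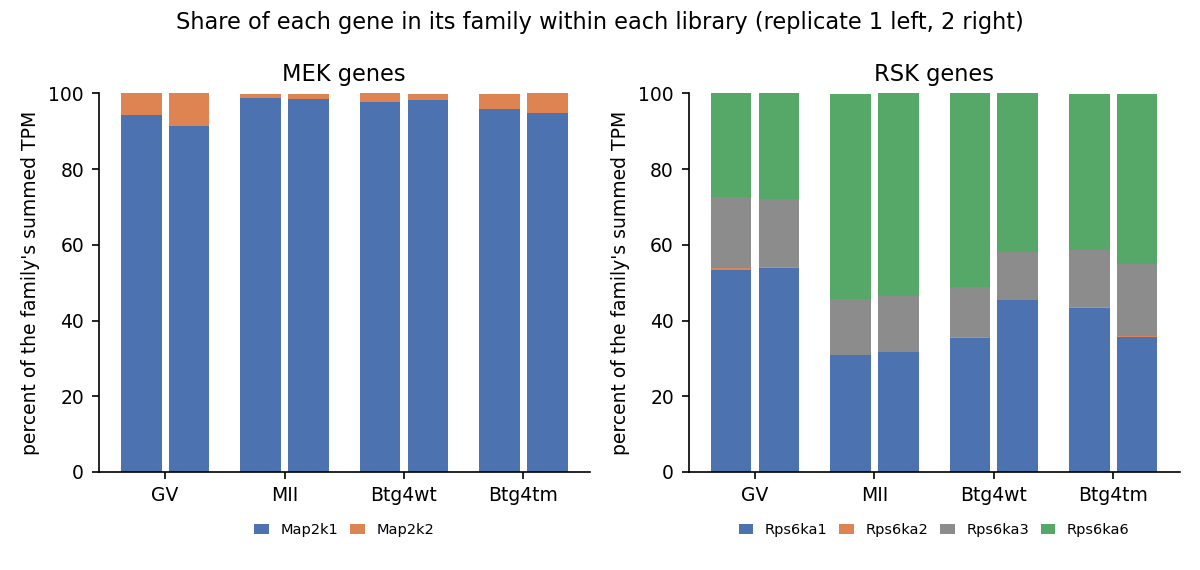
Percent of the summed TPM of each kinase family (vertical axes, 0 to 100) supplied by each gene in single libraries, replicate 1 on the left of each pair. The *Map2k2* share is 4.21% or more in GV and Btg4tm libraries and 2.18% or less in MII and Btg4wt libraries, and the *Rps6ka6* share is lowest in the GV libraries.

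Around the cascade, a list of 39 pathway genes was followed, of which 34 were listed in all tables and 33 were tested. In MII over GV, 4 were called higher and 5 lower, and their median log2 fold change was 0.24. In Btg4tm over Btg4wt, 4 were called higher and 1 lower, with a median of -0.26. The 1 called lower became 0 without either GV library and 2 without either MII library or Btg4wt replicate 1. In the other comparisons limma called 0 of them in either direction. The background shares are those given above for all genes.

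Of 6 other kinases of the same tiers tested, 1 was called higher in MII over GV and 0 in Btg4tm over Btg4wt. This was *Rps6ka6*, with 10.3 and 9.95 scaled TPM in GV, 24.7 and 26.0 in MII, 24.4 and 20.0 in Btg4wt and 14.9 and 16.9 in Btg4tm. GV lay lowest, Btg4tm next and both MII and Btg4wt highest. Its log2 fold change in MII over GV was 1.24 (SE 0.15, adjusted p = 0.00016, limma), and it turned to -0.84 with mitochondrial scaling. *Map3k4*, a kinase upstream of stress-activated MAP kinases, had -0.99 in Btg4tm over Btg4wt (SE 0.18, adjusted p = 0.0025, limma), just under the minimum fold. It passed that minimum when either MII library, Btg4wt replicate 1 (-1.13) or Btg4tm replicate 2 (-1.04) was left out.

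Of 7 scaffolds and regulators tested, 1 was called higher in MII over GV. *Pebp1*, which encodes an inhibitor of kinases upstream of MEK, had 105 and 101 scaled TPM in GV and 233 and 198 in MII. These groups did not overlap, and the log2 fold change was 1.05 (SE 0.11, adjusted p = 5.9e-05, limma), 0.89 with TPM as deposited, 0.94 without MII replicate 1 and -1.15 with mitochondrial scaling. Stretches shared with a pair of other genes, *Gm10819* and *Gm9824*, cover 45.3% of its transcript. Between Btg4tm and Btg4wt all 7 had log2 fold changes below 0 and none was called. Of all 13968 genes tested, 7036 lay above 0 there. The largest in size was that of *Shoc2*, a scaffold of the pathway upstream of MEK, at -0.57 (SE 0.14, adjusted p = 0.0095, limma), and it turned to 0.50 with mitochondrial scaling.

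Of 7 phosphatase genes tested, 1 was called higher and 1 lower in MII over GV, and 1 was called higher in Btg4tm over Btg4wt. *Dusp7*, a dual-specificity phosphatase that dephosphorylates ERK, had 140 and 143 scaled TPM in GV, 403 and 374 in MII, 404 and 315 in Btg4wt and 196 and 206 in Btg4tm. Btg4tm lay between GV and the others. Its log2 fold change in MII over GV was 1.45 (SE 0.13, adjusted p = 2.6e-05, limma), and -0.76 with mitochondrial scaling. *Ppp2ca*, a catalytic subunit of protein phosphatase 2A, had 63.1 and 53.1 scaled TPM in GV, 16.2 and 16.4 in MII, 14.4 and 10.1 in Btg4wt and 63.3 and 62.1 in Btg4tm. It was low in MII and Btg4wt alone, with log2 fold changes of -1.77 in MII over GV (SE 0.17, adjusted p = 4.9e-05, limma) and 2.29 in Btg4tm over Btg4wt (SE 0.17, adjusted p = 2.2e-05, limma). Other annotated genes overlap 41.3% of its exonic bases.

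Of 5 further kinases tested, PDK1 and kinases that MAP kinases activate, 1 was called higher and 1 lower in each of these comparisons. *Mapkapk2*, a kinase best known as a target of p38 MAP kinase, had 27.2 and 25.1 scaled TPM in GV, 2.18 and 1.81 in MII, 0.729 and 1.79 in Btg4wt and 10.2 and 22.8 in Btg4tm. GV and Btg4tm stood above MII and Btg4wt without overlap. It had log2 fold changes of -3.19 in MII over GV (SE 0.36, adjusted p = 0.00011, limma) and 2.89 in Btg4tm over Btg4wt (SE 0.36, adjusted p = 0.00029, limma). *Mknk1*, which phosphorylates the cap-binding protein eIF4E and was the most abundant of this role, stayed between 77.2 and 94.7 scaled TPM in all libraries. *Pdpk1*, which encodes PDK1, the kinase that completes RSK activation, was the one called higher in MII over GV, at 1.02 (SE 0.15, adjusted p = 0.00048, limma), and stood at 0.87 with TPM as deposited, 0.99 without GV replicate 2, 0.90 without MII replicate 1 and -1.12 with mitochondrial scaling. *Rps6ka5*, which encodes MSK1, was the one called lower in Btg4tm over Btg4wt, at -1.01 (SE 0.15, adjusted p = 0.00079, limma). It lost that call when either GV library, Btg4wt replicate 2 or Btg4tm replicate 2 was left out, the last giving -0.95, and turned to 0.011 with mitochondrial scaling. *Pdpk1* and *Rps6ka5* were named after their values were seen.

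Of 8 substrates and effectors tested, 3 were called lower in MII over GV and 2 higher in Btg4tm over Btg4wt. *Mapk1ip1* had 597 and 579 scaled TPM in GV, 68.4 and 73.6 in MII, 92.4 and 86.1 in Btg4wt and 389 and 427 in Btg4tm. All 4 groups were separate. Its log2 fold changes were -3.03 in MII over GV (SE 0.10, adjusted p = 4.8e-07, limma) and 2.18 in Btg4tm over Btg4wt (SE 0.10, adjusted p = 2.1e-06, limma), although an antisense neighbour, *Ppp2r2d*, overlaps 10.4% of its exonic bases. *Cpeb1*, which encodes the protein that binds cytoplasmic polyadenylation elements, and *Ybx2*, which encodes an RNA-binding protein that stabilises maternal mRNA, were the others called lower in MII, at -1.30 (adjusted p = 4.5e-05, limma) and -2.02 (adjusted p = 2.5e-05, limma). Between Btg4tm and Btg4wt, *Ybx2* was called higher at 1.94 (adjusted p = 5.2e-05, limma), and *Cpeb1* had 0.86 (adjusted p = 0.00066, limma), under the minimum fold. *Cpeb1* and *Ybx2* were likewise named after their values were seen. *Cdk2ap2*, a regulator of spindle assembly in oocytes and the most abundant of this role, had 0.69 in MII over GV (adjusted p = 0.0027, limma; -1.53 with mitochondrial scaling) and -0.24 in Btg4tm over Btg4wt (adjusted p = 0.19, limma).

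**Figure D4:**
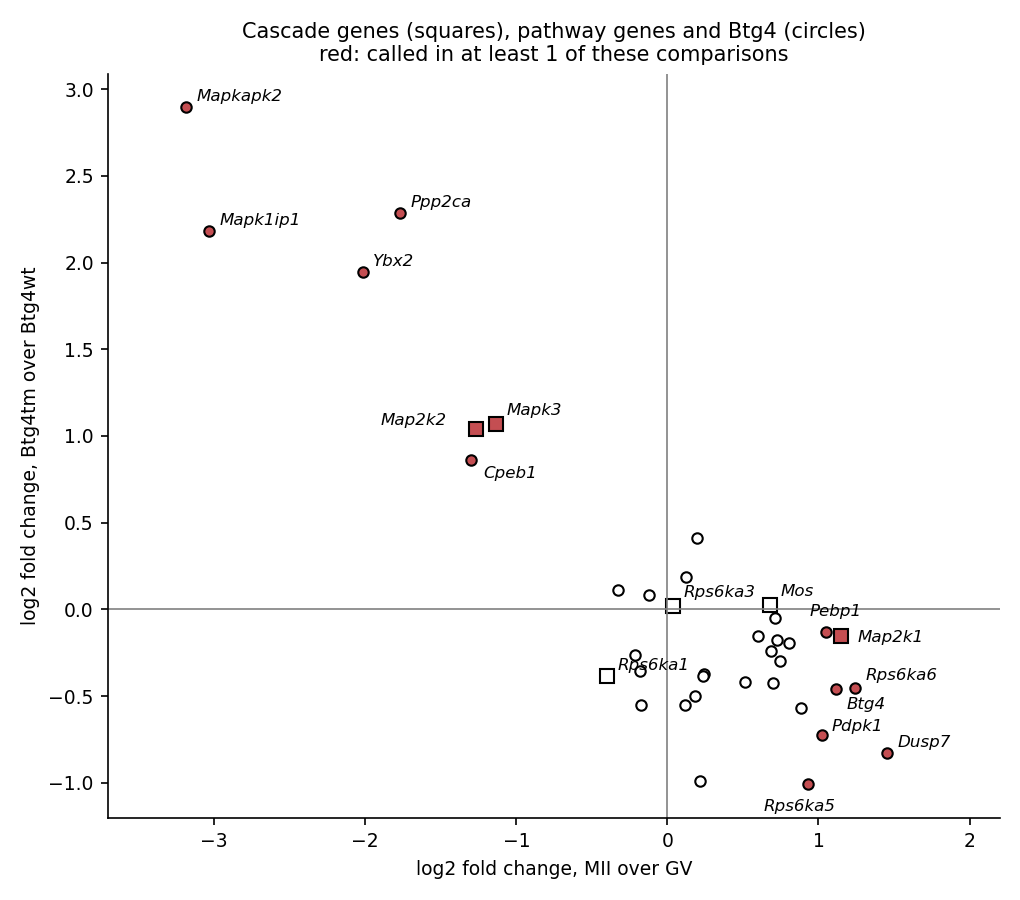
Log2 fold change in Btg4tm over Btg4wt (vertical axis) against that in MII over GV (horizontal axis), 2 comparisons that share no library, for the 6 tested cascade genes (squares) and other pathway genes with *Btg4* (circles). Red points were called in at least 1 of them. *Mapk3* and *Map2k2* lie at the upper left with *Ppp2ca*, *Ybx2*, *Mapk1ip1* and *Mapkapk2*, and *Map2k1* lies at the right.

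*Btg4*, whose translation the cascade promotes, had 2650 and 2794 scaled TPM in GV, 5792 and 6002 in MII, 5178 and 5510 in Btg4wt and 3725 and 4068 in Btg4tm. GV and MII oocytes were uninjected, so their reads are of the oocyte's own RNA. In Btg4wt and Btg4tm the reads may come from that RNA or from the injected cRNA, which cannot be told apart here. For *Btg4*, Btg4wt over MII gave a log2 fold change of -0.14 (SE 0.10, adjusted p = 0.62, limma). Btg4tm over Btg4wt gave -0.46 (SE 0.10, adjusted p = 0.0057, limma), under the minimum fold, and the libraries did not overlap. It was -0.24 after quantile normalization and 0.63 with mitochondrial scaling. The injected groups thus differed in measured *Btg4* RNA as well as in the alanine changes. The part of this difference in the other results was not tested. In MII over GV the log2 fold change of *Btg4* was 1.12 (SE 0.10, adjusted p = 3.1e-05, limma). The call was lost with TPM as deposited (0.96) and after quantile normalization (0.33), and the value was -1.10 with mitochondrial scaling. Per library, *Mos* RNA was 0.5985 and 0.5999 times that of *Btg4* in GV, 0.451 and 0.434 times in MII, 0.363 and 0.389 times in Btg4wt and 0.484 and 0.571 times in Btg4tm. *Map2k1* RNA stayed between 0.0515 and 0.0832 times that of *Btg4* in all 8 libraries, and the GV and MII ranges overlapped.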

How the data were processed

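The 7 cascade genes, the pathway and marker lists and the tests were chosen with earlier results of these data known. The authors trimmed reads with Trim Galore 0.6.10, aligned them to GRCm38 with HISAT2 2.2.0 (GENCODE annotation), counted reads on exons with featureCounts 2.0.6 without strand, dropped reads of low mapping quality and deposited TPM per gene symbol. They tested read counts with DESeq2, and those counts were not used here. From the TPM of the 15962 genes in all 8 tables, libraries were brought to 1 scale with median-of-ratios factors of 0.948 to 1.11. limma 3.58.1 in R 4.3.3 was fitted to log2(scaled TPM + 1) with 1 coefficient per group over all 8 libraries (eBayes with trend). Genes that reached 1 TPM in 2 or more libraries, 13968 in number, entered the fit. Fold changes on this scale understate changes of low genes. Genes were called where the Benjamini-Hochberg adjusted p-value over all genes tested was under 0.05 and the log2 fold change exceeded 1 in size. The procedure was tested on simulated data.

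Named pathway genes were, for each role, the gene with the highest mean level and the tested genes with the largest absolute log2 fold change in MII over GV and in Btg4tm over Btg4wt, with *Btg4* added. A gene that this rule picks is not reported here. Genes most like a member in pattern were the 3 with the highest Pearson correlation, for members and genes with means of at least 10 scaled TPM. Positions and 3′UTRs came from GENCODE M21 on GRCm38 (Python 3.11.15), matching 13643 of the 13968 genes by symbol. The longest annotated 3′UTR of each gene was searched on the sense strand, with overlapping matches counted. Alternatives tried were quantile normalization, mitochondrial scaling, unscaled TPM, a pseudocount of 0.1, other low-value filters (none, or 5 TPM), fits to the 4 compared libraries alone, the replicate number as a block, eBayes with no trend, calls by adjusted p-value alone or under 0.01, leaving out each library, the RSK share without *Rps6ka6*, and another choice of 3′UTR. The labels speak of more samples per group than the 2 libraries analysed here.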

Additional observations from a re-analysis of the deposited data

How the results depend on the processing

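Of 1269 values obtained under the alternatives, 1141 kept their direction and their side of the threshold (or, for counts and levels, stayed close to the reported value). The other low-value filters, eBayes with no trend and the replicate block cannot move a log2 fold change, only its p-value. The count of values kept is therefore not a measure of how stable the fold changes are. TPM keep no depth, so counting error is unknown, and 2 libraries per group limit every test. Where a library is left out, the lone library of its group is assumed to vary like the other groups. The cause of the changes given here was not tested.

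Mitochondrial scaling, which moved the median of all genes, reversed the log2 fold change of *Mos* (-1.54), *Map2k1* (-1.06), *Rps6ka3* (-1.89), *Btg4* (-1.10), *Rps6ka6* (-0.84), *Map3k4* (-1.83), *Pebp1* (-1.15), *Shoc2* (-1.30), *Dusp7* (-0.76), *Mknk1* (-2.07), *Cdk2ap2* (-1.53), *Pdpk1* (-1.12) and *Rps6ka5* (-1.15) in MII over GV. In Btg4tm over Btg4wt it reversed *Map2k1* (0.93), *Rps6ka1* (0.64), *Btg4* (0.63), *Rps6ka6* (0.58), *Map3k4* (0.0085), *Pebp1* (0.95), *Shoc2* (0.50), *Dusp7* (0.26), *Cdk2ap2* (0.85), *Pdpk1* (0.33) and *Rps6ka5* (0.011). It also reversed *Mos* (0.12), *Map2k1* (0.26) and *Rps6ka3* (0.25) in Btg4wt over MII, and *Mos* (-0.31), *Map2k2* (-0.47) and *Mapk3* (-0.62) in Btg4tm over GV. *Map2k2* and *Mapk3* kept their direction and their calls under it in MII over GV (-3.15 and -3.34) and in Btg4tm over Btg4wt (*Mapk3* at 2.15). Under it 0 members were called higher and 6 lower in MII over GV, with 0 and 30 pathway genes, beside 7 and 11403 of all genes. Between Btg4tm and Btg4wt 11 pathway genes were called higher and 0 lower, beside 6089 and 69 of all genes. In Btg4tm over GV 1 member and 5 pathway genes were called lower, as were 2972 of all 13968 genes tested.

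With TPM as deposited, 0 members and 2 pathway genes were called higher in MII over GV and 2 pathway genes lower in Btg4tm over Btg4wt, and small values changed sign for *Rps6ka3* (-0.10) and *Mknk1* (-0.032) in MII over GV and for *Map2k2* (-0.018) and *Mapk3* (-0.15) in Btg4tm over GV. Of all 13968 genes tested, 1145 were called higher in MII over GV and 1146 lower in Btg4tm over Btg4wt with TPM as deposited. After quantile normalization, 1 member was called lower in MII over GV, beside 2711 of all genes. In Btg4tm over Btg4wt, 0 members were then called higher and 2 pathway genes lower, beside 2081 higher and 1778 lower of all genes. Sign changes after quantile normalization were *Rps6ka3* (-0.19) and *Mknk1* (-0.065) in Btg4tm over Btg4wt, and *Mapk3* (-0.037) and *Rps6ka3* (0.0019) in Btg4tm over GV. A pseudocount of 0.1 gave 2 pathway genes lower in Btg4tm over Btg4wt, beside 1466 of all genes. A fit of only 4 libraries gave 1 pathway gene higher in Btg4tm over GV, beside 189 of 13376 genes. Without a minimum fold, 2 members and 15 pathway genes were higher in MII over GV, 11 pathway genes lower in Btg4tm over Btg4wt, and 1 member and 6 pathway genes higher and 1 pathway gene lower in Btg4tm over GV. In either direction, 4 of 6 members and 20 of 33 pathway genes passed in MII over GV, beside 62.6% of all genes. In Btg4tm over Btg4wt 2 members and 17 pathway genes passed, beside 49.5%. In Btg4tm over GV 1 member and 7 pathway genes passed, beside 11.4%.

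Leaving out each library in turn gave 0 to 2 members called higher (0 without Btg4wt replicate 2, 1 without Btg4tm replicate 1) and 0 to 2 pathway genes called lower in Btg4tm over Btg4wt (0 without either GV library). Log2 fold changes whose range included 0 were those of *Rps6ka3* in MII over GV (-0.042 to 0.12). In Btg4tm over Btg4wt they were *Mos* (-0.16 to 0.21), *Map2k1* (-0.36 to 0.050) and *Rps6ka3* (-0.15 to 0.19). *Mapk3* ran from -0.16 to 0.31 in Btg4wt over MII. In Btg4tm over GV they were *Map2k2* (-0.025 to 0.32), *Mapk3* (-0.081 to 0.12) and *Rps6ka3* (-0.29 to 0.057). In MII over GV *Pdpk1* ran from 0.90 to 1.17. The called *Mapk3* difference in Btg4tm over Btg4wt ran from 0.83 to 1.30, that of *Map2k2* from 0.93 to 1.13 and that of *Rps6ka5* from -1.07 to -0.95.

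Deviations of libraries of the same number correlated at -0.054 to 0.055. With 2 libraries per group this cannot show whether such libraries share animals, cultures or a batch. A replicate block cannot move a log2 fold change, because the replicate numbers are balanced over the groups. It changed no call of a member or named gene. The *Rps6ka1* share of RSK RNA was higher without *Rps6ka6* (67.9% in MII). The 3′UTR of the transcript with the longest coding sequence gave the same number of TTTTAT and TTTTAAT matches in every member. In *Map2k2* and *Rps6ka1* this 3′UTR held no AATAAA. For *Rps6ka1* that transcript is not the one of greatest spliced length.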

Other observations

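For the 4 members whose mean level reached 10 scaled TPM, the genes most like them over the 8 libraries were searched among 6881 genes. The points share libraries and scaling, and the correlations (Pearson, on the log2 scale) describe these libraries. Nearest to *Mapk3* were *Sumo3* (0.998), *Tpgs2* (0.995) and *Fhit* (0.995). *Sumo3*, which encodes a small ubiquitin-like modifier, had mean levels of 285 scaled TPM in GV, 59.7 in MII, 69.5 in Btg4wt and 264 in Btg4tm. Nearest to *Map2k1* were *Tmprss11a* (0.997), *Ctnnb1* (0.993) and *Ddb2* (0.993). *Ctnnb1*, which encodes beta-catenin, had mean levels of 27.0 in GV, 56.9 in MII, 47.5 in Btg4wt and 45.1 in Btg4tm. Nearest to *Mos* were *AI413582* (0.979), *Gm13491* (0.978) and *Twistnb* (0.973). Nearest to *Rps6ka1*, with lower correlations, were *Lmf2* (0.947), *Fam160a1* (0.908) and *Zfp207* (0.900).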
